A study of Mus musculus with 2 samples.

Results

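The 82 protein-coding histone genes of the mouse were examined for EGR1 peaks in the frontal cortex. They were taken from GENCODE release M21 by symbol, and comprised 67 clustered genes (symbols starting with Hist1h, Hist2h, Hist3h or Hist4h) and 15 variant genes (H2af, H3f or H1f) of 22028 protein-coding genes in all. EGR1 is a zinc-finger transcription factor induced by neuronal activity. Its binding was measured by ChIP-seq, where DNA fragments bound by the protein are enriched with an anti-EGR1 antibody and sequenced, in wild-type male mice of the strain C57BL6N/129SvEv (hybrids of both backgrounds) at 6 weeks, with no treatment named. The tissue was whole frontal cortex, a mixture of neurons and glia, and each of 2 ChIP experiments used a pool of 4 to 5 mice. The deposited data are 1 merged list of 12014 peaks that passed an irreproducible discovery rate (IDR) of 2%, where a low IDR means that a peak ranked high and alike in both experiments. The list carries no read counts, so the depth is unknown and the spread between the experiments could not be computed. The input DNA sample was not analysed here. Intervals below are 95% Wilson intervals over genes or peaks. They cover counting only, and neighbouring histone genes that share promoters or sequence are not independent.

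Histones package DNA in nucleosomes. The core histones H2A, H2B, H3 and H4 form the octamer, and the linker histone H1 binds where DNA enters and leaves it. Most clustered genes are replication-dependent: they are transcribed mainly in S phase, generally lack introns, and their mRNAs end in a stem-loop instead of a poly(A) tail. Variant genes lie outside the large clusters, mostly make polyadenylated mRNAs and are expressed outside S phase. Postmitotic neurons no longer replicate their DNA and draw on replication-independent variants, H3.3 above all, for new histone.

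A histone gene was counted as having a peak when a peak centre lay within 1 kb of one of its annotated transcription start sites (TSSs). Of the 67 clustered genes, 9 had a peak (13.4%, interval 7.23 to 23.6%). The share among the other 21946 protein-coding genes was 28% (6151 genes, interval 27.4 to 28.6%), above the interval of the clustered genes. Of the 15 variant genes, 5 had a peak (33.3%, interval 15.2 to 58.3%), an interval that holds the 28% of other genes and lies above the 13.4% of clustered genes, while the intervals of both histone classes overlap. The 14 histone genes with a peak shared 12 distinct peaks. Start sites of clustered genes that lay within 1 kb of each other merged into 54 promoters, of which 9 had a peak.

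**Figure D1:**
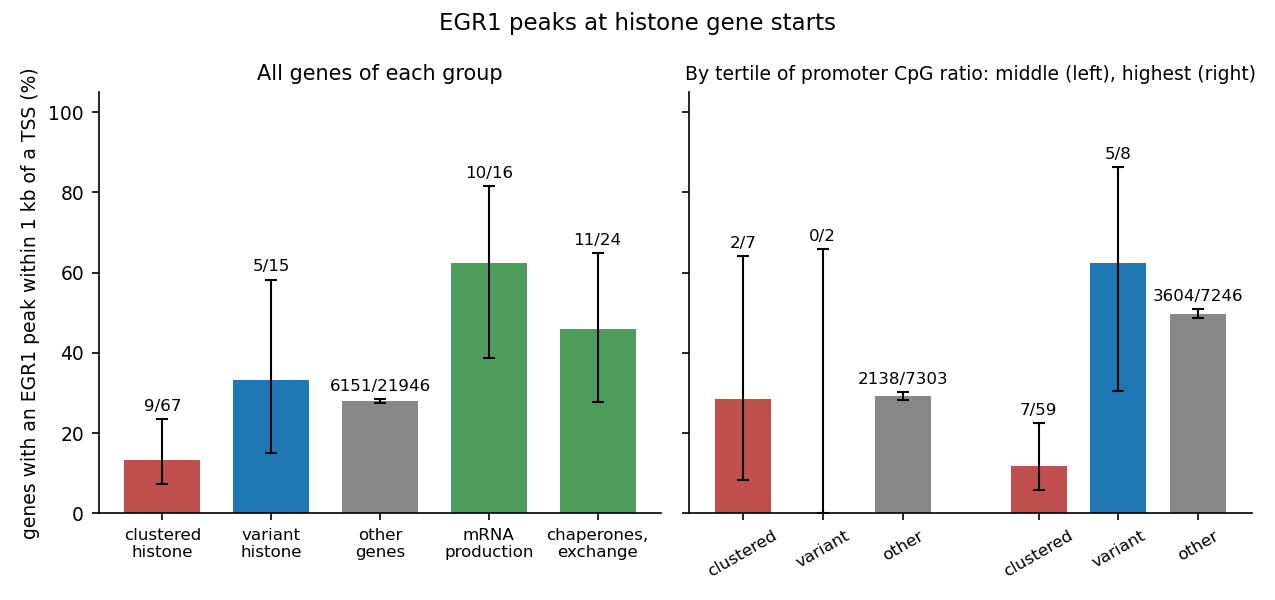
Share of genes with an EGR1 peak centre within 1 kb of a TSS (%), with 95% Wilson intervals as error bars and counts above them, for each group (left) and for promoters in the middle and highest tertile of CpG ratio (right). Clustered histone genes were at 9 of 67 overall and at 7 of 59 in the highest tertile, where the other genes were at 3604 of 7246.

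EGR1 recognises GCGTGGGCG or GCGGGGGCG, and an exact copy of either on one of the strands lay in 5 of the 12 peaks at histone genes (41.7%, interval 19.3 to 68.0%). The same held for 1527 of the 6625 peaks at other protein-coding genes (23.0%), within that interval. With 1 mismatch allowed the counts were 11 of 12 and 83.6%. The sequences of the 5 peaks with the lowest IDR are shown for their upstream part, because these are the histone promoters at which the peaks were most reproducible. They were read from the RefSeq assembly GRCm38.p6 (mm10), on the strand of the gene and ending before its first annotated TSS where the peak runs past it. Capitals mark the best match to the EGR1 motif, which is exact for H2afx and H3f3a and has 1 mismatch in the others. A motif match is a description of the letters and not a measured contact.
H2afv (chr11:6444647-6444766, - strand): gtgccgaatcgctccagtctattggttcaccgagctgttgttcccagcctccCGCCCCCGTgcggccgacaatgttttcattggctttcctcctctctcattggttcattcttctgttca
H2afx (chr9:44334582-44334693, + strand): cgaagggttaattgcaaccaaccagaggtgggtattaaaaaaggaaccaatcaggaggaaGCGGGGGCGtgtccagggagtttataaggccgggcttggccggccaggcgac
Hist4h4 (chr6:136804423-136804576, - strand): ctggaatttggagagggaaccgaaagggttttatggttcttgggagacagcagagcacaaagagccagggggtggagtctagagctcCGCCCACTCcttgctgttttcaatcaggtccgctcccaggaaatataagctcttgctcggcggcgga
Hist1h4f (chr13:23551679-23551871, - strand): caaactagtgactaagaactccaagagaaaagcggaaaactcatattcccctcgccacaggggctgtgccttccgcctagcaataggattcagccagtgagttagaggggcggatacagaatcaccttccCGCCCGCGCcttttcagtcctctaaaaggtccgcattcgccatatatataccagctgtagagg
H3f3a (chr1:180813944-180814145, - strand): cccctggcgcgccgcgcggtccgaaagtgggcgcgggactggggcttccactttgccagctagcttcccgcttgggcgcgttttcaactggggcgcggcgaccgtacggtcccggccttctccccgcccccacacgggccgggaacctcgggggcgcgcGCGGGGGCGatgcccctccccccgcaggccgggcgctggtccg

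The variant genes with a peak encode H2A.Z, H2A.X, H2A.J and H3.3. H2afv, for the second H2A.Z protein, had its peak centre 264 bp upstream of the TSS, with an IDR of 6.62e-08. H2afx, whose protein is phosphorylated at DNA breaks, had a peak 34 bp upstream with an IDR of 6.7e-08. Both peaks ranked in the 5.03% of the list with the lowest IDR. H3f3a, 1 of the genes for the replication-independent H3.3, had a peak 78 bp upstream with an IDR of 6.59e-06. The peak of H2afj, for H2A.J, was centred 151 bp downstream of the TSS (chr6:136808352-136808615) with an IDR of 0.000693. H2afz, for the first H2A.Z protein, had a peak 293 bp upstream (chr3:137864062-137864325) with an IDR of 0.000839. Thus 4 of these 5 peaks were centred upstream of their gene.

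The other 10 variant genes had no peak within 1 kb. Both macroH2A genes were far from a peak, with the nearest centre 21.6 kb from a TSS of H2afy and 103.9 kb from that of H2afy2. H3f3b, which encodes the same H3.3 protein as H3f3a, had its nearest peak 11.7 kb away, so the gene pair differed in this list. H1f0 and H1fx, which encode linker histones, had their nearest peaks 10.7 and 12.6 kb away. The remaining 5 belong to the germline: H1fnt and the H2afb genes of testis and H1foo of the oocyte, with nearest peaks from 23.0 kb (H2afb3) to 3609 kb (H2afb2). With the clustered testis genes Hist1h1t, Hist1h2aa and Hist1h2ba, 0 of 8 germline histone genes had a peak, which allows a share of up to 32.4% by the Wilson interval. That range includes the 28% of other protein-coding genes. Without them, 5 of 10 variant and 9 of 64 clustered genes had a peak.

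Among the clustered genes, both peaks of lowest IDR were at H4 genes. Hist4h4, an H4 gene and the only clustered gene counted on chromosome 6, had a peak 85 bp upstream with an IDR of 7.62e-08. The variant gene H2afj, with its own peak, lies nearby on the other strand (5′ ends at chr6:136804415 for Hist4h4 and chr6:136808244 for H2afj). Hist1h4f, an H4 gene of the large cluster on chromosome 13, had one 127 bp upstream with an IDR of 2.51e-06. Hist2h2ab, an H2A gene on chromosome 3, had a peak 170 bp downstream of its TSS with an IDR of 1.03e-05 (chr3:96219948-96220122). That peak also counted for the facing H2A gene Hist2h2ac, 845 bp from its TSS, and lay within 1 kb upstream of the non-histone gene Bola1. Hist3h2ba, an H2B gene on chromosome 11, had a peak 654 bp upstream with an IDR of 0.00151 (chr11:58948139-58948392).

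The other 3 peaks of the clustered genes lay on chromosome 13 and had higher IDRs. A peak with an IDR of 0.00324 (chr13:23621620-23621869) was centred 813 bp downstream of the TSS of the linker histone gene Hist1h1e, in its untranslated region, and 621 bp upstream of the annotated TSS of the H2B gene Hist1h2be. The record of Hist1h2be spans chr13:23583670-23621124, so this count rests on an annotated start far from the other end of the gene. This peak was the only one of the 12 without an EGR1 motif even at 1 mismatch, and its CpG ratio (CpG observed over that expected from C and G content) was 0.14. Hist1h2bm (H2B) had a peak 261 bp upstream with an IDR of 0.0149 (chr13:21721658-21721907). Hist1h1c (H1) had one 108 bp downstream with an IDR of 0.0175 (chr13:23738784-23739047), close to the limit of the list. The median IDR of the best peak per gene was 0.00151 for the 9 clustered genes, 6.59e-06 for the 5 variant genes and 2.46e-05 for the 6151 other genes. The order of clustered and other genes depended on the distance limit: within 500 bp of a TSS, the median was 1.03e-05 for 5 clustered genes and 2.54e-05 for 5656 other genes. Those 5 still included Hist1h2bm and Hist1h1c, the clustered genes of highest IDR, so the change is that of a median over few genes.

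**Figure D2:**
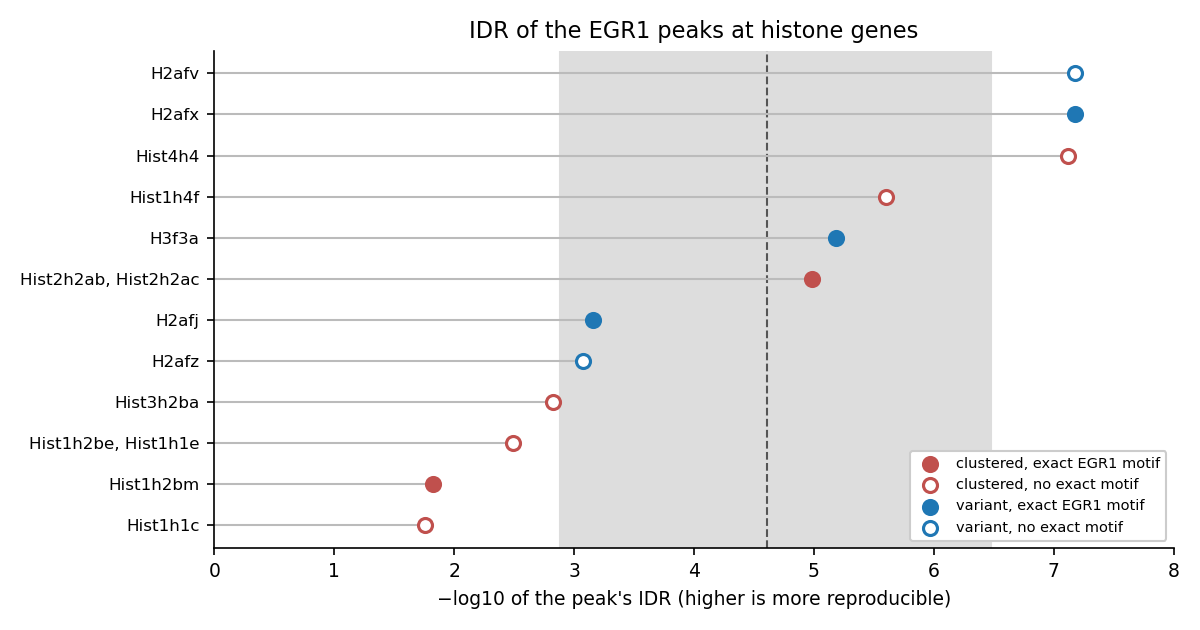
The 12 EGR1 peaks at histone genes by −log10 of their IDR, with clustered genes in red, variant genes in blue and filled points for peaks with an exact EGR1 motif. The dashed line and grey band are the median and quartiles of the best peak at other protein-coding genes. H2afv, H2afx and Hist4h4 lie beyond the band at the low-IDR end, and 4 clustered peaks lie beyond it at the other.

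By family, peaks were counted at 2 of 6 clustered H1, 2 of 18 H2A, 3 of 18 H2B, 0 of 12 H3 and 2 of 13 H4 genes. The share was 13.4% over all clustered genes and 28% over other protein-coding genes. The 0 of 12 clustered H3 genes allow a share of up to 24.2% by the Wilson interval. That range includes the 13.4% but not the 28%, and neighbouring genes are not independent. At the limit of 1 kb, the last genes inside were Hist3h2ba at 654 bp, Hist1h1e at 813 bp and Hist2h2ac at 845 bp. The first genes outside were Hist2h2be (H2B) at 1084 bp, Hist1h1d (H1) at 1487 bp and Hist1h3h (H3) at 4124 bp. Hist2h2be lay next to the Hist2h2ab peak and Hist1h1d next to the Hist1h4f peak. The median distance from a TSS to the nearest peak was 22.3 kb for clustered genes, 12.6 kb for variant genes and 30.04 kb for the others. These medians are not a like comparison. Clustered genes lie close together and share nearest peaks: the 10 on chromosome 3 all measured to 1 peak. The shortest distance over all TSSs was taken, and the median number of TSSs was 1 for clustered and 3 for other genes.

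**Figure D3:**
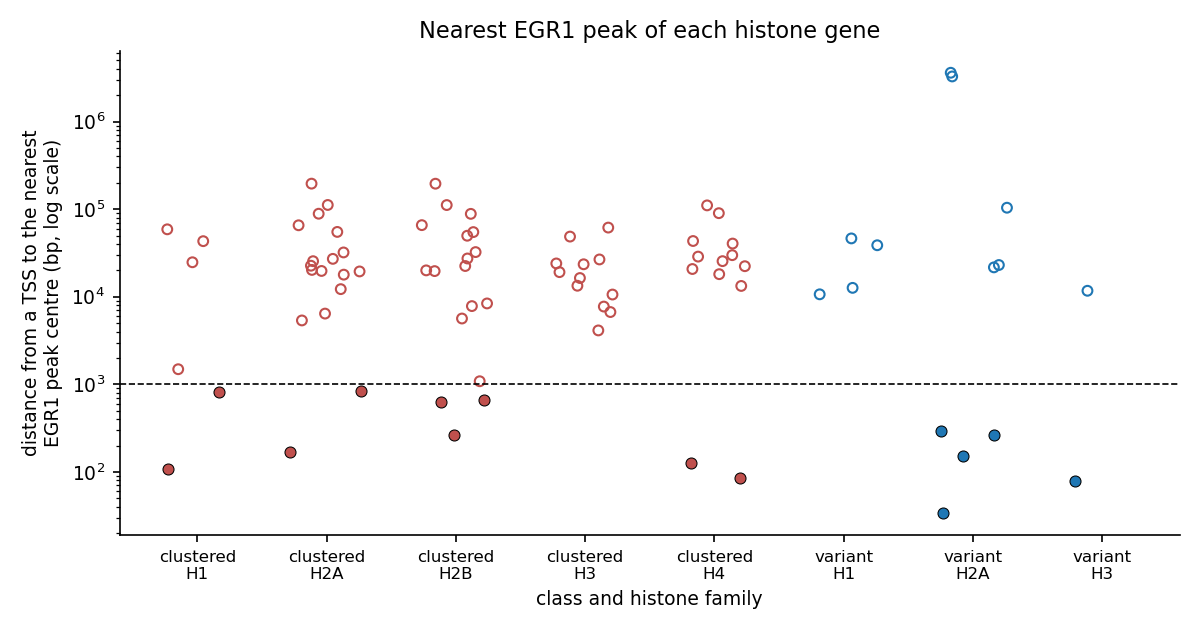
Distance (bp, log scale) from a TSS of each of the 82 histone genes to the nearest EGR1 peak centre, by class and family. Filled points lie within 1 kb (dashed line) and open points outside, and no clustered H3 gene lies inside.

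Most clustered genes lie on chromosome 13, where 5 of 54 had a peak (9.26%, interval 4.02 to 19.9%). The 10 genes on chromosome 3 shared 1 peak, which counted for 2 of them. The stretch of 2.22 Mb from the first to the last clustered gene of chromosome 13 held 7 peaks, of which 4 were at histone genes. It also held 49 non-histone protein-coding genes, of which 1, the zinc-finger gene Zfp184, had a peak. Genes less than 100 kb apart formed 4 blocks there. The block of 29 genes from Hist1h4h to Hist1h1a, 233.4 kb long, held 3 peaks. The block of 18 genes from Hist1h2bl to Hist1h2br, 121.8 kb long, held 1, and the blocks of 5 and 2 genes held 0.

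**Figure D4:**
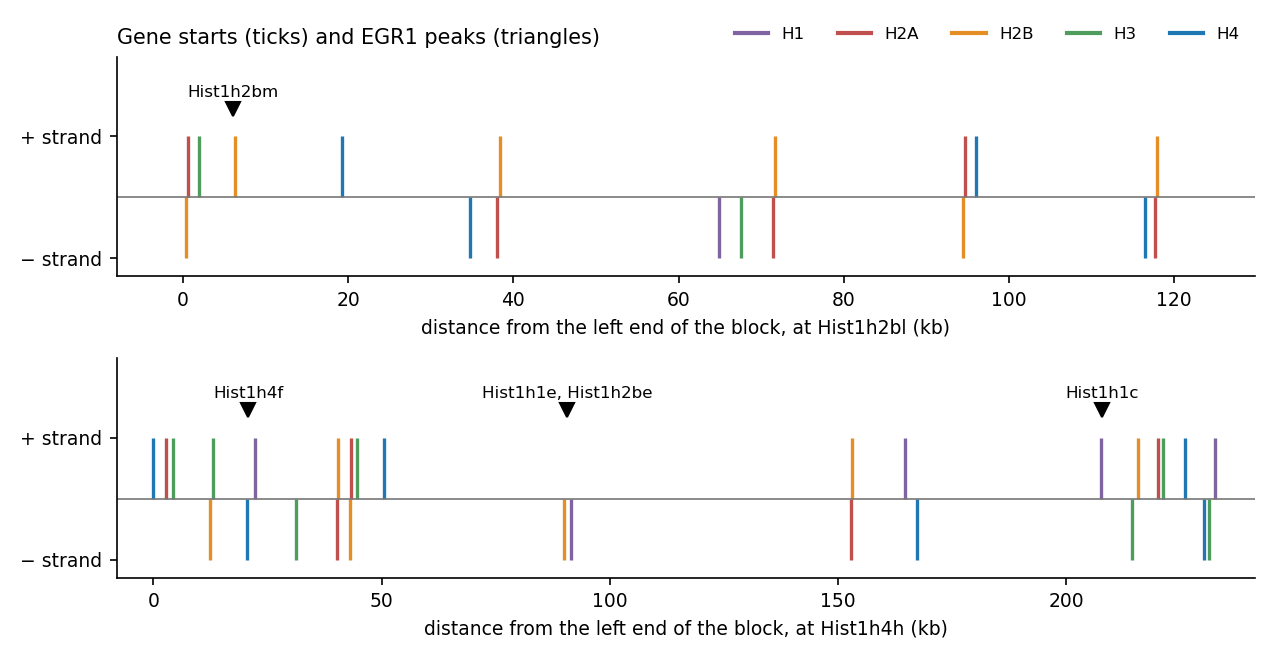
The larger blocks of clustered histone genes on chromosome 13, of 18 genes (top) and 29 genes (bottom), with distance in kb from the left end of each. Ticks are gene starts by family and strand, and black triangles are EGR1 peaks with the genes they were assigned to: 1 in the upper block and 3 in the lower.

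The promoters of clustered genes were rich in CpG, as were those of most other genes with a peak. The CpG ratio in the 500 bp to each side of the 5′ end of the gene had a median of 0.88 for clustered genes, 0.80 for variant genes and 0.55 for the others. Genes were split into tertiles of this ratio. Among other genes, 5.60% had a peak in the lowest tertile of CpG ratio, 29.3% in the middle tertile and 49.7% in the highest. In this highest tertile lay 59 of the 67 clustered genes, and 7 of them had a peak (11.9%, interval 5.87 to 22.5%). Of the 8 variant genes there, 5 had one (62.5%, interval 30.6 to 86.3%), so every variant gene with a peak was CpG-rich. The 8 germline histone genes, clustered and variant, all lay in the lowest or middle tertile. H3f3b and H2afy fell in the lowest tertile at the 5′ end of their record, but reached CpG ratios of 0.99 and 0.90 at another annotated TSS. Taking the highest ratio over the TSSs of each gene, a choice made after seeing the data, gave 7 of 56 clustered, 5 of 10 variant and 50.3% of other genes.

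The clustered promoters were also distinct in other sequence elements between 250 bp upstream and 50 bp downstream of the 5′ end, searched on both strands. TATAAA was found in 37 of 67 clustered genes (55.2%) against 12.5% of other genes. CCAAT was in 83.6% against 38.9%, and ATTTGCAT, the octamer bound by POU factors at H2B promoters, in 22.4% against 1.51%. The GC box GGGCGG, whose letters can overlap an EGR1 site, was in 41.8% and 43.0%. An exact EGR1 motif was in this window in 2.99% of clustered and 4.28% of other genes, and one with up to 1 mismatch in 23.9% and 32.5%.

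In the wider window of 1 kb to each side, clustered genes had an exact EGR1 motif more often than other genes, but rarely a peak. The motif was within 1 kb of the 5′ end of 28 clustered genes (41.8%), 6 variant genes (40%) and 2494 other genes (11.4%). Apart from the H3 genes Hist2h3c1 and Hist2h3c2, the 28 were H2A genes and H2B genes beside an H2A gene or pseudogene. Neighbours can thus count the same copy of the motif, and the 28 are not separate promoters. Of those with the motif, 3 clustered genes (10.7%), 4 variant genes (66.7%) and 1767 other genes (70.9%) had a peak. The 3 clustered genes were Hist1h2bm, Hist2h2ab and Hist2h2ac, and Hist2h2ab and Hist2h2ac shared their peak. Without the motif, 6 of 39 clustered genes and 22.6% of other genes had a peak. The motif was sought only near the 5′ end, while a peak could lie at any TSS and need not hold the motif. The median number of TSSs was 1 for clustered and 3 for other genes, and these shares were not matched for it. Few of the clustered genes with the motif had unique sequence at their start: with at least 90% of 50-bp words present once in the genome, 2 remained, of which 1 had a peak (50%, interval 9.45 to 90.5%), against 71.5% of other genes. These 2 are neighbours on chromosome 3: Hist2h2ab had the peak, and Hist2h2be lay 1084 bp from that same peak. The 50% thus describes 1 locus and not 2 separate genes.

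Many of these motifs lie in the coding sequence of H2A. A stretch of 27 bases at one place in the reading frame was found in 20 of the 27 H2A-family genes, not in the macroH2A, H2A.Z and H2afb genes. It came in 7 different sequences. In 16 genes it holds GCGTGGGCG, with its middle 130 to 242 bp from the 5′ end of the gene. The sequences are shown because the same letters lay in a peak in some genes and outside every peak in others. Capitals mark the motif, read on the strand of the gene.
Hist1h2ac (also in 11 other Hist1h2a genes, chr13:23683774-23683800): tactcggagcGCGTGGGCGccggcgcc
Hist2h2ab (also in Hist2h2ac, chr3:96220033-96220059): tacgcggagcGCGTGGGCGccggcgcg
H2afj (chr6:136808457-136808483): tacgcggagcGCGTGGGCGcgggagcg
H2afx (chr9:44334879-44334905): tacgccgagcGCGTGGGCGcaggcgcg
Hist2h2aa1 (also in Hist2h2aa2, chr3:96245698-96245724): tacgcggagcgtgtgggtgccggcgcg
Hist3h2a (chr11:58954855-58954881): tattcggagcgggtcggcgctggtgcc
Hist1h2aa (chr13:23934579-23934605): tacgcacaacgaattggggctggtgca

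The stretch lay inside a peak in 2 of the 16 genes that carry the motif, Hist2h2ab and H2afj, where it was 12 and 13 bp from the peak centre. Both peaks were centred in the coding sequence. In the other 14 genes it was outside every peak, including Hist2h2ac, whose stretch is identical to that of Hist2h2ab, and H2afx, whose peak lies upstream at its GCGGGGGCG. Across the assembled chromosomes the 4 forms with the motif occurred at 17 places, 16 in these genes and 1 in the H2A pseudogene Hist1h2aj. That last place lay in the peak counted for Hist1h2bm. So 3 of the 5 exact motifs in histone peaks were in H2A coding stretches or their pseudogene copy, and those of H2afx and H3f3a were in promoters. In total, 3 of the 12 histone peaks were centred in coding sequence (Hist2h2ab, H2afj and Hist1h1c; 25%, interval 8.89 to 53.2%), against 5.71% of peaks at other genes, below that interval. The amount of coding sequence near the TSS was not matched between these groups, so the shares also carry differences in gene structure.

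Many clustered genes are near-identical copies of each other, and a read that fits several copies may not be placed at any of them. How multiply matching reads were handled is not given in the sources used here. Words of 50 bp were therefore counted in the genome on both strands. They were taken every 10 bp, from 250 bp upstream of the 5′ end to 250 bp downstream. This length is the stated Bowtie seed, but Bowtie2 is named as well, so the seed used is not settled. The reads were longer than a word and paired, so word counts do not show whether a fragment could be placed. The median gene had 72% of words with 1 copy among clustered genes, 100% among variant genes and 100% among other genes. The 9 clustered genes with a peak ranged from 72 to 100% with a median of 84%. The peak centres of Hist1h2bm, Hist1h2be, Hist3h2ba, Hist1h1e and Hist2h2ac, 261 to 845 bp from the TSS, lay outside this window. Within the peaks of the clustered genes, the share of words with 1 copy ranged from 57.1% (Hist1h2bm) to 100%. The 58 without a peak ranged from 0 to 100% with a median of 70%, and all 10 clustered genes under 50% were among them.

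At the H2A stretch itself, the 50-bp word around it had 1 copy in 5 of the 16 genes with the motif, and 2 of these 5 (Hist2h2ab and H2afj) had the peak. In the 11 genes with 2 to 7 copies, 0 had it. The genes with 1 copy and no peak there were Hist1h2ac, Hist2h2ac and H2afx. The pseudogene Hist1h2aj is outside these 16 genes. Its stretch, in a form found at 13 places, did lie in a peak. That peak held words with up to 11 copies, while 57.1% of its words had 1 copy.

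Restricting both groups to genes in the highest tertile of CpG ratio with at least 90% unique words left 9 clustered genes, of which 3 had a peak (33.3%, interval 12.1 to 64.6%). These 3 were Hist4h4, Hist2h2ab and Hist1h1e. Hist1h1e counted only through the peak centred 813 bp downstream, outside the window of the words and without an EGR1 motif even at 1 mismatch. Among other genes the share was 50.2% (3542 of 7050), inside the interval of the clustered genes. Below 90% unique words, in the same tertile, it was 4 of 50 clustered genes (8%, interval 3.15 to 18.8%) and 62 of 196 other genes (31.6%). The number of TSSs, each of which is a chance to be near a peak, also differed: 94.0% of clustered and 22.3% of other genes had 1 TSS. Among genes with 1 TSS the shares were 8 of 63 clustered (12.7%) and 11.2% of other genes, and in the highest tertile of CpG ratio 7 of 56 clustered (12.5%, interval 6.19 to 23.6%) and 38.6% of other genes. With 1 TSS, at least 90% unique words and the highest tertile together, they were 3 of 9 clustered (33.3%, the same genes as above) and 40.0% of other genes. These values move with the lower share of the clustered genes, and their part in it was not tested.

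**Figure D5:**
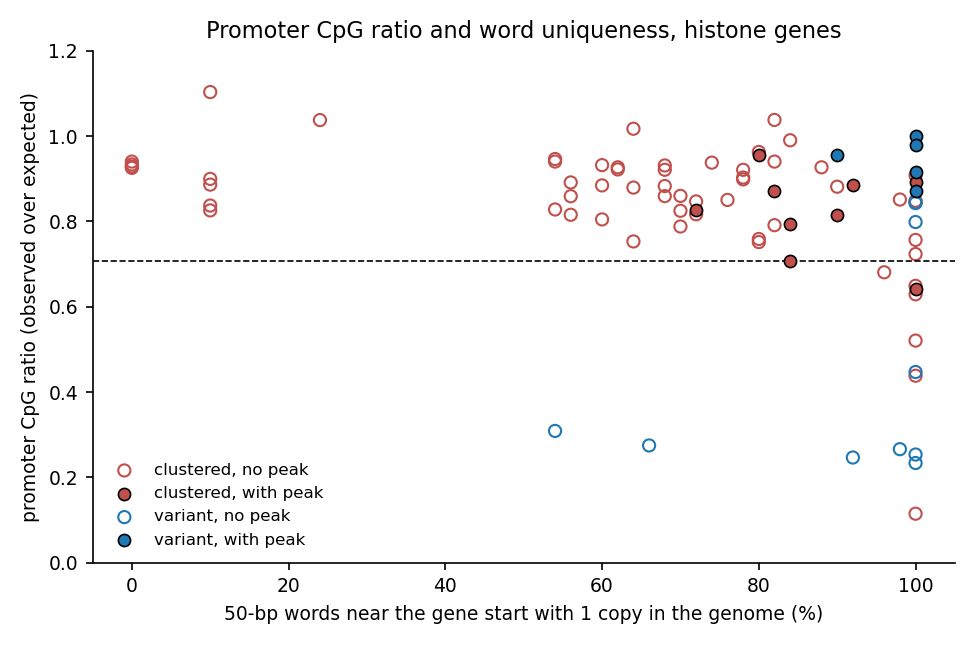
Share of 50-bp words near the gene start that occur once in the genome (%, x axis) against the CpG ratio of the promoter (y axis), for the 82 histone genes, with filled points for genes with an EGR1 peak. The dashed line is the lower bound of the highest tertile of CpG ratio over all protein-coding genes. No gene under 72% on the x axis has a peak, while most clustered genes lie above the line.

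The genes that produce histone mRNA and place histones on chromatin were read in the same way, from a list of 40. Of the 16 genes of histone mRNA transcription and processing, 10 had a peak (62.5%, interval 38.6 to 81.5%). Of the 24 chaperone and exchange genes, 11 had one (45.8%, interval 27.9 to 64.9%). Both lists together were at 21 of 40 (52.5%), beside 28% of all other genes. The 40 genes had a median of 7 annotated TSSs and the other genes 3. Counting only the 5′ end of each gene record, the shares were 18 of 40 (45%) and 24.5%. In the highest tertile of CpG ratio, which held 31 of the 40, the share was 17 of 31 (54.8%, interval 37.8 to 70.8%), whose interval includes the 49.7% of other genes.

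In the mRNA group, Pou2f1, which encodes the octamer-binding factor OCT1, had a peak 244 bp upstream with an IDR of 9.81e-07. Zfp473, a zinc-finger protein of the histone pre-mRNA cleavage complex, had one 190 bp upstream with an IDR of 1.6e-06. Slbp, whose protein binds the stem-loop of histone mRNA, had one 56 bp downstream with an IDR of 0.00351. Npat, the coactivator of clustered histone genes in S phase, had one 938 bp upstream with an IDR of 0.00497. Its partner Casp8ap2 had one 140 bp upstream with an IDR of 0.0045. Hinfp, the activator of H4 genes, had its nearest peak 8958 bp away.

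Among chaperones, Chaf1b, a subunit of the replication-coupled H3-H4 chaperone CAF-1, had a peak 33 bp upstream with an IDR of 5.1e-08, while Chaf1a, another subunit, had none within 1 kb. Rbbp4, also in this list, had a peak 67 bp upstream with an IDR of 1.96e-06. Znhit1, of the SRCAP complex that deposits H2A.Z, had a peak 128 bp downstream with an IDR of 5.71e-08. The H2A.Z-related genes Ep400 (IDR 7.16e-05) and Anp32e (IDR 0.00475) had peaks as well, whereas Srcap and Vps72 had none within 1 kb. Of the H3.3 pathway, Cabin1 (IDR 1.13e-06) and Ubn2 (IDR 0.00432) had peaks and Hira, Ubn1, Daxx and Atrx had none. Both subunits of FACT, Supt16 (IDR 4.44e-06) and Ssrp1 (IDR 0.000121), had peaks. Asf1a and Asf1b, H3-H4 chaperones, had none within 1 kb.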

How the data were processed

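EGR1 ChIP-seq of frontal cortex was deposited as 1 merged peak list. Reads (100 bp, paired ends) were trimmed by the authors, aligned to mm10 with Bowtie (seed of 50 bases, 2 mismatches), called peaks per replicate with SPP and kept an IDR of 2%. The submitters' processing notes name Bowtie2 2.2.9, bedtools 2.26.0 and cutadapt 11.2. The deposited values are peak positions and an IDR per peak, comparable to a q-value. Depth per sample is unknown, and no replicate could be left out. No paired analysis was possible because the replicates are merged.

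Positions were read as 0-based BED starts, an assumption, and are printed from 1. Peak centres were assigned to TSSs of GENCODE M21 within 1 kb with pandas 2.3.3 and numba 0.67.0 (Python 3.11.15, numpy 2.4.6), and the scripts were tested on simulated data. Sequences were read from GRCm38.p6. No test was made: shares stand beside those of other genes. All variant genes, clustered genes with a peak and the 3 genes on each side of the limit were named. Examples from the list of 40 genes, Zfp184 and the genes of the H2A stretch were chosen after their values were seen. Members and lists were chosen with earlier results of these data known.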

Additional observations from a re-analysis of the deposited data

How the results depend on the processing

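Of 44 other settings, 34 left counts within 1.5 times, shares within their interval and medians close to the value in the report. With peak centres within 500 bp, 5 clustered genes had a peak and the median IDR of their best peaks was 1.03e-05, below the 2.54e-05 of other genes, so the order of these medians turned; in the report the clustered median is the higher. With the 50% of peaks of lowest IDR, the counts were 4 clustered genes, 3 variant genes, 3975 other genes, 6 histone peaks and 4 merged clustered promoters. On chromosome 13 alone, 5 clustered genes had a peak. With 1 mismatch allowed, 91.7% of histone peaks held the EGR1 motif. Taking the peak nearest to a TSS, the median IDR of other genes was 5.08e-05. The last change comes from choosing another peak for the same genes, and the others from counting fewer peaks or genes, or looser matches. The only setting of these chosen after seeing the data, the CpG ratio at the TSS where it is highest, kept the count of CpG-rich clustered genes with a peak at 7. The list of one merged experiment pair gives no error for any single gene, a peak absent from it may lie below its IDR limit, and shares over 67 clustered genes, many near-identical, and over 15 variant genes have wide intervals.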
